A study of Mus musculus with 3 samples.

Results

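Natural killer (NK) cells in which Cd27 and Itgam transcripts were found together were described in sorted NK cells of mouse lung and blood. A cell was a member when its barcode held at least 1 Cd27 count and at least 1 Itgam count, and 3559 of 21113 kept cells (16.9%) met this rule. Kept cells had 800 to 5000 detected genes, at most 6% mitochondrial counts and 1 hashtag at 90% or more of their tag counts. The comparison groups were the other kept cells of the same library and tissue, and among them the cells with Cd27 only and the cells with Itgam only.

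Sorted live NK1.1+NKp46+ cells came from wild-type female mice aged 9 weeks in 3 groups: naive mice, mice killed 6 h after an intravenous dose of 100000 PyMT mammary tumor cells (6h), and mice killed 14 days after it (14d). Each group gave 1 droplet library, in which lung and blood cells of the same mice were told apart by hashtag antibodies, so that there were 6 sets of cells. Mice were not told apart within a library, and no group had a second library. Tumor nodules and intravascular and extravascular cells of the lung were not separated.

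CD27, a receptor of the tumor necrosis factor receptor family, and CD11b, the integrin alpha chain encoded by Itgam, order mouse NK cells by maturation. Less mature cells carry CD27 without CD11b, a middle stage carries both, and the most mature cells keep CD11b and lose CD27. Maturation runs with a fall of the transcription factor TCF-1 (Tcf7) and a rise of ZEB2, and mature cells gain KLRG1, the sphingosine-1-phosphate receptor S1PR5 and the fractalkine receptor CX3CR1.

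In these data Cd27 (ENSMUSG00000030336, chromosome 6 from 125232622 to 125237010 of GRCm38, minus strand) was the limiting transcript. It was found in 19.99%, 26.1% and 26.1% of kept cells of naive, 6h and 14d lung and in 26.7%, 31.6% and 24.6% of those of blood. Itgam (ENSMUSG00000030786, chromosome 7 from 128062640 to 128118491, plus strand) was found in 75.1%, 74.4% and 59.5% of lung cells and in 80.0%, 77.0% and 75.01% of blood cells. The members were selected on the counts of these 2 genes, so their values are given as description, without a test. Summed over members, Cd27 lay between 147 and 215 counts per 1000000 counts of the same cells (CPM) and Itgam between 248 and 391 CPM over the 6 sets.

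Most members stood at the edge of the rule. A single Cd27 count was held by 64.0% of members, a single Itgam count by 34.4%, and 772 members (21.7%) had 1 count of each gene. The highest counts were 10 for Cd27 and 22 for Itgam. Just outside the rule were cells with Cd27 at 1 or more and Itgam at 0, of which there were 240, 406 and 483 in lung and 315, 260 and 169 in blood, and cells with Itgam at 1 or more and Cd27 at 0, of which there were 2265, 2668 and 1679 in lung and 2642, 1505 and 1213 in blood. Among members, 1922 had more Itgam than Cd27 counts, 624 had more Cd27 than Itgam counts and 1013 had equal counts.

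Double-positive cells made up 13.5% (495 of 3676 cells, Clopper-Pearson 95% interval 12.4 to 14.6), 17.4% (816 of 4680, 16.4 to 18.6) and 12.6% (449 of 3575, 11.5 to 13.7) of naive, 6h and 14d lung cells. In blood they made up 19.5% (851 of 4367, 18.3 to 20.7), 22.2% (609 of 2746, 20.6 to 23.8) and 16.4% (339 of 2069, 14.8 to 18.1). The share was higher in blood than in lung in all 3 libraries, and in both tissues it was highest in the 6h and lowest in the 14d library. Of cells with Cd27, 67.3%, 66.8% and 48.2% also had Itgam in naive, 6h and 14d lung, and 73.0%, 70.1% and 66.7% did in blood. The low value in 14d lung goes with the 483 Cd27-only cells there, more than the 449 double-positive cells. With 1 library per group, these shares have no replicate check, and their intervals cover counting error only.

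**Figure D1:**
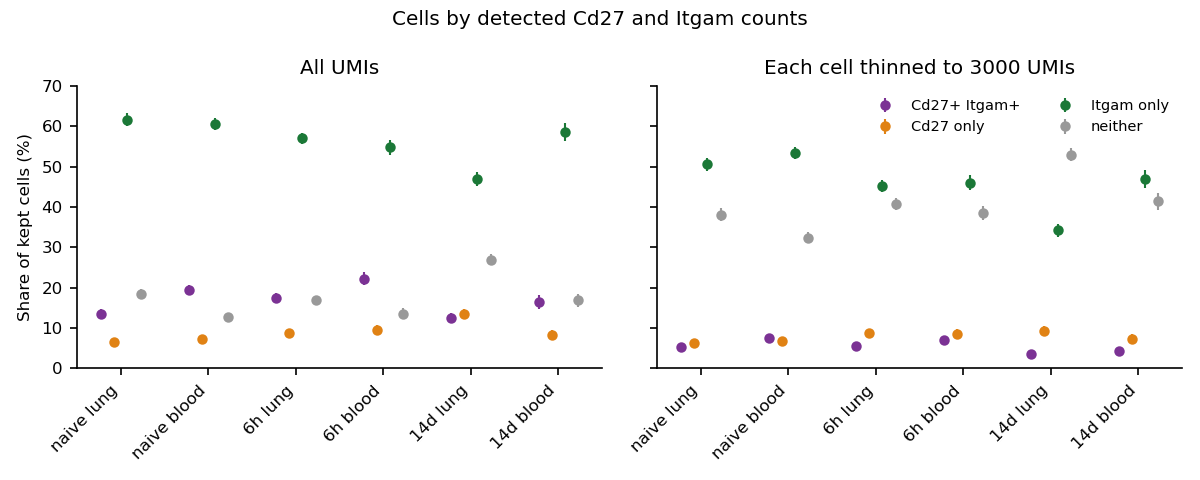
Share of kept cells (percent, y axis) that were double-positive, Cd27-only, Itgam-only or negative for both genes, for each tissue and library, with exact 95% binomial intervals as bars. Double-positive cells lie between 12.6% and 22.2% and are higher in blood than in lung of each library.

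The share moved with sequencing depth. Members had a median of 6901, 8403 and 8128 counts in naive, 6h and 14d lung and 7389, 8682 and 9057 in blood, against 5785, 6772.5 and 6834.5 and against 6170, 7146 and 7278 in the other kept cells. In naive lung the share rose from 2.7% of cells under 4000 counts to 26.8% of cells with 10000 or more, and in 6h blood from 5.6% to 35.4%. With every cell thinned to 3000 counts, the shares were 5.21%, 5.47% and 3.45% in lung and 7.39%, 6.93% and 4.36% in blood. Blood stayed above lung in each library, and the 14d library stayed lowest in both tissues, while the 6h library was no longer the highest in blood. At that depth both transcripts met in one cell less often than the product of their separate shares, which was 6.36%, 7.15% and 4.82% in lung and 8.64%, 8.21% and 5.99% in blood.

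**Figure D2:**
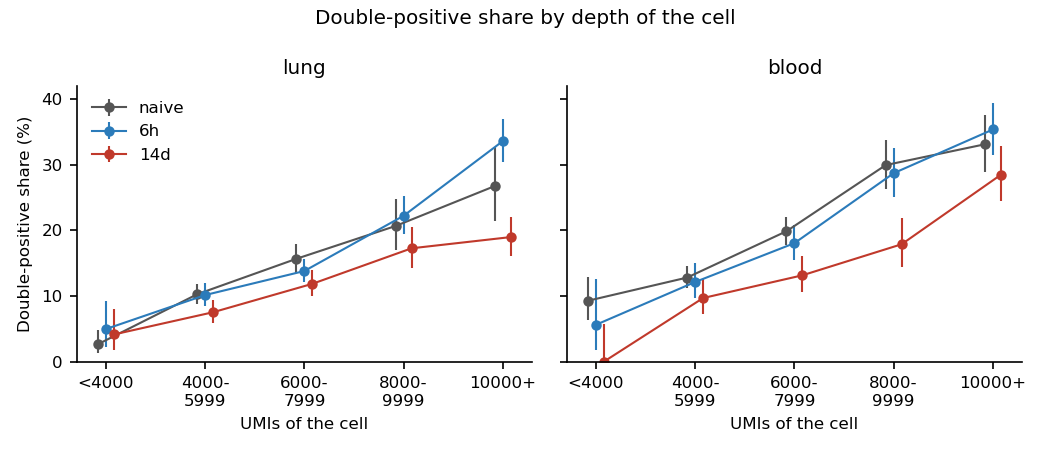
Share of double-positive cells (percent, y axis) in bins of total counts per cell (x axis), one line for each library and tissue, with exact 95% binomial intervals. The share climbs with counts per cell in all 6 sets.

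Barcodes with 2 hashtags, as a lung and a blood cell in one droplet would give, were double-positive more often. They were left out, and they numbered 342, 158 and 134 in the naive, 6h and 14d libraries. Cd27 and Itgam were both found in 33.6%, 38.0% and 37.3% of them, against 16.7%, 19.2% and 14.0% of kept cells. From their number, doublets within a tissue were estimated at 4.14%, 2.39% and 2.67% of barcodes, which on the same rate of double positives would make up 8.32%, 4.72% and 7.14% of the members. Free RNA could give a Cd27 count in at most 1.76%, 2.78% and 0.406% of cells and an Itgam count in at most 4.97%, 6.81% and 1.16%. The libraries shared between 6 and 16 cell barcodes, at most 0.2155% of a library's kept cells.

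Markers of NK cells were found at high levels. The cells were sorted on NK1.1 and NKp46, so finding the genes of these 2 proteins was set by the sort and is no test of the label. Ncr1, which encodes NKp46, was found in 98.1% of kept cells, Klrb1c, which encodes NK1.1, in 99.2%, and Eomes, a T-box factor of conventional NK cells, in 71.0%. All 10 NK markers were above 0 in members of all 6 sets, with a sum of 15200 to 22265 CPM. The other kept cells had 17891 to 25802 CPM, above the members in each set. The 10 T cell markers summed to 570 to 671 CPM in members, led by Trbc1 at 294 to 369 CPM, while Cd3e stayed at or below 5.5 CPM. The 6 B cell markers summed to 48 to 72 CPM, nearly all of it Ighm. Myeloid markers summed to 3.25 to 41.7 CPM in members, with Lyz2 the highest at 23.3 CPM in 14d lung, against 20 to 116 CPM in the other cells. In 14d lung they were above the other cells, at 41.7 against 26.8 CPM, and in the other 5 sets below. The 8 ILC1 markers summed to 60.5 to 213 CPM in members and 77 to 214 CPM in the other cells. In members they were led by Il21r, except in 14d lung, where Itga1 led at 89.5 CPM. Cxcr6 stayed at or below 10.1 CPM and Tmem176b at or below 5.8 CPM in members. Erythroid and platelet markers summed to at most 1.61 CPM in members, while in the other cells of 14d lung they reached 80.3 CPM, led by Hbb-bs at 59.5 CPM. The endothelial and epithelial markers were almost wholly Pecam1, at 68.8 to 89.97 CPM in members. The term transitional rests on the 2 transcripts alone, since surface CD27 and CD11b were not measured in these cells.

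Counts were summed over members and over the other kept cells in each library, and the sums were compared within a tissue with the library as a block (edgeR quasi-likelihood test, Benjamini-Hochberg adjusted p under 0.05 over all genes tested, Cd27 and Itgam left out). The p-values measure how alike a difference was over 3 libraries of different conditions, not over replicates of one condition. In lung, 266 genes were higher in double-positive cells (2.26% of 11763 tested) and 127 were lower (1.08%). In blood, 706 were higher (6.19% of 11402) and 420 were lower (3.68%). Of these, 283 genes were called in both tissues, all in the same direction, 189 higher and 94 lower, which is 72.0% of the calls in lung and 25.1% of those in blood. A test of the difference between the tissues called 0 of 11361 genes by edgeR, with 690 at an unadjusted p under 0.05, and 0 by DESeq2, with 155. Against other cells matched on total counts, the calls were 107 higher and 108 lower in lung and 476 higher and 363 lower in blood, and 390 of 391 genes called in lung and 1105 of 1110 called in blood kept their direction, with 157 and 666 of them called again. Leaving out the 14d library raised the calls in lung to 954, and leaving out the naive library lowered those in blood to 502. With the matching, the surplus of higher over lower genes in lung was gone. With no filter on low counts, the surplus shrank in both tissues. The calls were then 348 higher and 341 lower in lung and 705 and 637 in blood.

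Most listed genes that mark less differentiated NK cells were higher in double-positive cells than in the other kept cells. Of 15 such genes, 10 were called higher in both tissues and none was called lower, with a median log2 fold change of 0.55 in lung and 0.79 in blood, against 0 over all genes tested. Among those not called in lung, Il7r was at -0.37 and Gpr183 at -0.088, while Kit was at 0.34 and Lef1 at 0.15. The list takes in genes by which the study described its clusters in these same libraries, so it is not independent evidence of the direction. The other kept cells mostly lacked Cd27, a rule gene, with 11972 Itgam-only cells, 3709 with neither transcript and 1873 Cd27-only cells. The comparison is thus largely of cells with and without Cd27. Against Cd27-only cells, 9 of the 15 genes were lower in members in both tissues. Tcf7 (chromosome 11 from 52252371 to 52283014), which encodes TCF-1, had 66.4, 67.7 and 78.9 CPM in naive, 6h and 14d lung and 76.4, 90.9 and 54.3 CPM in blood in members. The other kept cells had 36.7, 36.9 and 60.8 in lung and 42.8, 42.3 and 28.7 in blood, so the groups did not overlap in either tissue. The log2 fold change was 0.70 ± 0.09 (adjusted p = 0.00041) in lung and 0.97 ± 0.07 (adjusted p = 1.2e-08) in blood.

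Emb (chromosome 13 from 117208536 to 117274415), which encodes the membrane glycoprotein embigin, had 647, 690.0 and 324 CPM in naive, 6h and 14d lung and 108, 129.8 and 80.6 CPM in blood in members, and 309, 319.5 and 259.5 in lung and 56.9, 54.7 and 33.6 in blood in the other cells. Its log2 fold change was 0.86 ± 0.11 (adjusted p = 0.00034) in lung and 1.14 ± 0.07 (adjusted p = 7.8e-10) in blood. Members were above the other cells in all 6 sets, and lung cells of both kinds were far above blood cells. Myb, a transcription factor of progenitor cells, had 100.0, 104 and 58.8 CPM in naive, 6h and 14d lung and 38.0, 38.4 and 19.9 CPM in blood in members and 52.5, 52.2 and 32.4 in lung and 14.2, 17.1 and 9.21 in blood in the other cells, and differed by 0.95 ± 0.06 in lung and 1.28 ± 0.10 in blood on the log2 scale. Ccr2, the receptor for the chemokine CCL2, had 382, 358 and 258 CPM in naive, 6h and 14d lung and 404, 351 and 266 CPM in blood in members. The other cells had 199, 201 and 173 in lung and 235, 210.2 and 153 in blood, and no value of the 2 groups overlapped within a tissue. The chemokine receptors Cxcr3 and Cxcr4 were higher by 0.82 and 0.88 and by 0.32 and 0.73 in lung and blood, the surface protein Thy1 by 0.65 and 0.96, the costimulatory receptor Cd28 by 0.53 and 0.88 and the protease inhibitor Ctla2a by 0.72 and 0.94.

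Ltb, which encodes lymphotoxin beta, was called higher in both tissues, yet its size varied between libraries. Members had 36.3, 57.1 and 147 CPM in naive, 6h and 14d lung and 47.4, 94.6 and 48.1 CPM in blood, and the other cells had 16.7, 33.5 and 129 in lung and 34.0, 51.2 and 52.2 in blood, so the groups overlapped, and members were below the other cells in 1 of the 3 blood samples. With cells thinned to 3000 counts its log2 fold change in blood was -2.67e-05. Other genes with the largest positive fold changes over both tissues were Aff3, Fgf13, Plxnc1 and Mfsd6, of which Aff3, a nuclear protein of the AF4 family, was higher by 0.87 and 0.98 in lung and blood.

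Genes of terminally differentiated NK cells ran the other way. Of 14 tested in both tissues, 12 were lower in members in both and 1, Itgax, was higher, with a median log2 fold change of -0.50 in lung and -0.50 in blood. This list too holds genes the study used for its clusters, and here too the other kept cells mostly lacked Cd27. Cx3cr1 (chromosome 9 from 119901616 to 120069879), the fractalkine receptor, had 46.3, 34.9 and 44.1 CPM in naive, 6h and 14d lung and 44.3, 38.0 and 74.2 CPM in blood in members. The other cells had 103, 97.7 and 72.2 in lung and 109.7, 101 and 149 in blood, above the members in all 6 sets and without overlap in either tissue. The log2 fold change was -1.15 ± 0.10 (adjusted p = 1.5e-05) in lung and -1.22 ± 0.07 (adjusted p = 3.1e-10) in blood. Klrg1, an inhibitory receptor, had 117, 103 and 77.5 CPM in naive, 6h and 14d lung and 129, 103 and 164 CPM in blood in members and 192, 187 and 112 in lung and 208, 205 and 228 in blood in the other cells, a log2 fold change of -0.71 ± 0.06 in lung and -0.70 ± 0.06 in blood. In lung, these 2 groups overlapped between libraries although members were lower in each library.

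S1pr5, which guides NK cells out of lymphoid organs, was lower, with log2 fold changes of -0.45 and -0.43 in lung and blood. The potassium channel gene Kcnj8 was lower at -1.01 and -1.22, Ly6c2 at -0.96 and -1.01, the chymase gene Cma1 at -0.60 and -0.51 and Entpd1, which encodes the ectonucleotidase CD39, at -0.56 and -0.66. Itgax (chromosome 7 from 128129547 to 128150657), which encodes CD11c, starts 11056 bases after the end of Itgam on the same strand. It had 81.3, 99.5 and 89.7 CPM in naive, 6h and 14d lung and 121, 117 and 140.4 CPM in blood in members and 73.3, 76.5 and 69.0 in lung and 87.4, 89.4 and 87.3 in blood in the other cells, and was higher by 0.32 ± 0.06 (adjusted p = 0.0053) in lung and 0.52 ± 0.05 (adjusted p = 2.1e-06) in blood. Members exceeded the other cells in all 6 sets. Whether reads of the neighbouring gene, a rule gene, had a part in this was not tested.

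**Figure D3:**
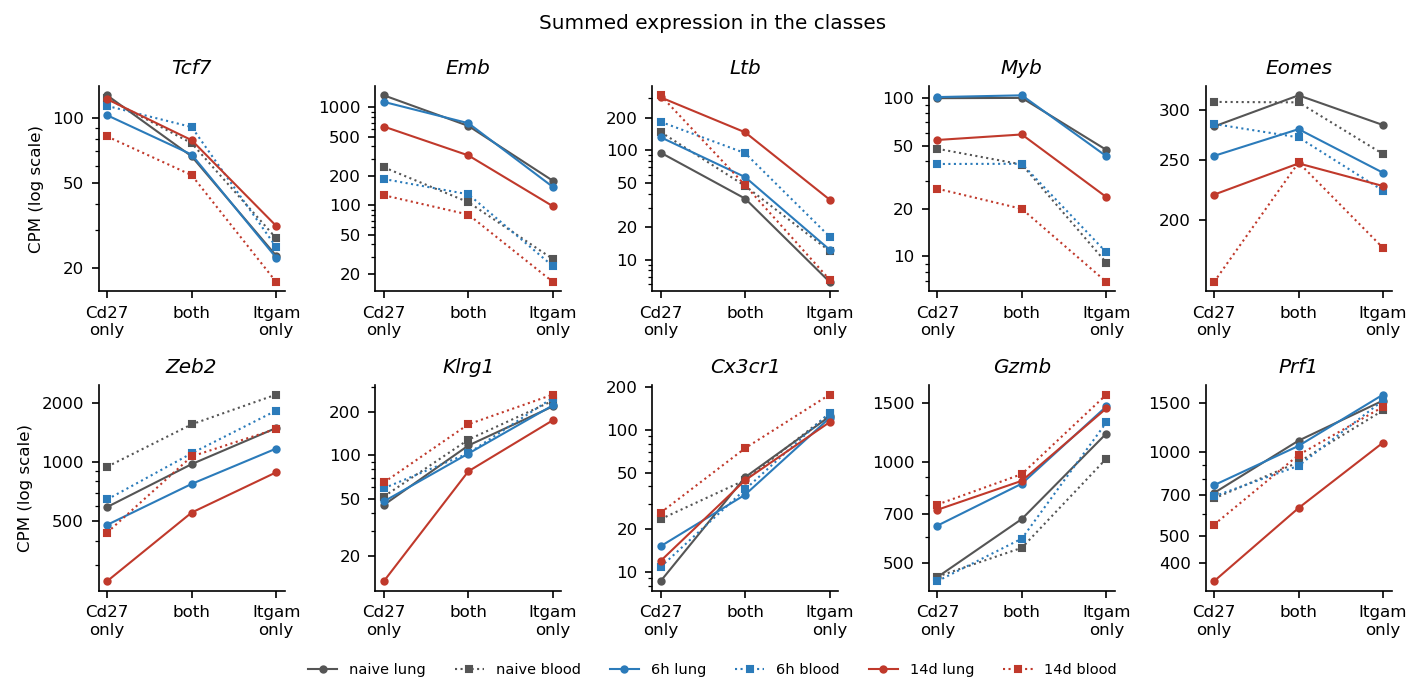
Level (CPM of summed counts, log axis) of 10 genes in Cd27-only, double-positive and Itgam-only cells, one line for each of the 6 sets, solid for lung and dotted for blood. For Tcf7, Emb and Ltb all lines fall, and for Zeb2, Klrg1, Cx3cr1, Gzmb and Prf1 all rise, from Cd27-only through double-positive to Itgam-only cells, while Myb is about level from Cd27-only to double-positive cells in lung and Eomes has its highest value in double-positive cells in 4 of the 6 sets.

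Cytotoxic genes were part of the lower group. Of 18 genes of granules and death ligands, 6 were lower in both tissues (Gzma, Gzmb, Prf1, Nkg7, Fasl and Cst7) and none was higher in both. Gzmb, which encodes the protease granzyme B, had 677, 862 and 879 CPM in naive, 6h and 14d lung and 556, 592 and 920.2 CPM in blood in members. The other cells had 1143, 1339 and 1282 in lung and 952, 1154 and 1483 in blood, with no overlap in either tissue and a log2 fold change of -0.63 ± 0.04 (adjusted p = 2.3e-06) in lung and -0.79 ± 0.04 (adjusted p = 1e-10) in blood. Gzma, encoding granzyme A, was lower at -0.36 ± 0.04 in lung and -0.33 ± 0.03 in blood, and Prf1, encoding the pore protein perforin, at -0.40 ± 0.04 in lung and -0.50 ± 0.03 in blood. The transcript level of Gzma was high in members nonetheless, with 9037, 9195 and 7769 in lung and 9020.5, 8927 and 11909 in blood (CPM). Gzmk was higher by 1.39 in blood, and Gzmc was lower at -1.10 in lung.

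Transcription factors of NK maturation split. Of 21 tested in both tissues, 5 were higher in both (Eomes, Tcf7, Bach2, Tox and Myb) and 5 were lower in both (Tbx21, Zeb2, Id2, Klf2 and Irf8). Zeb2, a transcriptional repressor needed for terminal maturation, had 979.8, 777 and 555 CPM in naive, 6h and 14d lung and 1562, 1112 and 1072 CPM in blood in members and 1346, 1046 and 644 in lung and 1997, 1566 and 1309 in blood in the other cells, a log2 fold change of -0.36 ± 0.05 in lung and -0.36 ± 0.03 in blood. Members were below the other cells in each of the 6 sets, but the libraries differed enough that the ranges overlapped. The related T-box factors moved by small steps in opposite directions, Eomes by 0.19 ± 0.04 (adjusted p = 0.019) in lung and 0.32 ± 0.04 (adjusted p = 5.5e-05) in blood and Tbx21, which encodes T-bet, by -0.22 ± 0.04 (adjusted p = 0.01) in lung and -0.22 ± 0.03 (adjusted p = 0.00027) in blood. Foxo1, Ets1 and Lef1 were higher and Ikzf3 lower in blood, and Maf was higher in lung, without a call in the other tissue. Klf2, a factor that drives S1pr1, was higher by 0.065 on the log2 scale in blood once the other cells were matched on counts.

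Trafficking and surface receptors also divided. Of 14 trafficking receptors tested in both tissues, S1pr1, Ccr2, Cxcr3, Cxcr4 and Cd44 were among those higher in both and 3 were lower in both (S1pr5, Cx3cr1 and Cmklr1). The sphingosine-1-phosphate receptors thus went opposite ways, S1pr1 by 0.67 and 0.90 and S1pr5 by -0.45 and -0.43 in lung and blood. Among 9 Ly49 receptors tested in both tissues, which bind major histocompatibility complex class I, Klra7 was higher by 0.28 ± 0.05 (adjusted p = 0.0026) in lung and 0.32 ± 0.04 (adjusted p = 3.8e-06) in blood. Within each tissue, its values did not overlap between members (722, 606 and 633 in lung and 853, 711 and 806 in blood) and the other cells (551, 526 and 541 in lung and 694, 618 and 607 in blood). Klra3, Klra5 and Klra9 were lower in both tissues. Klra4 was also called higher in blood, by 0.20 (adjusted p = 5.6e-05), and Klra17, tested only in lung, was called higher there by 3.04 (adjusted p = 0.015) on no more than 3.25 CPM in members of any library. These genes are close copies, and reads may be split between them. Of 19 other NK receptors, Klrb1b, Klrb1c and Ncr1 were lower in both tissues, Klrb1c at -0.25 and -0.16 and Ncr1 at -0.16 and -0.15.

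Of 12 integrin subunits, Itgax was higher and Itgb2 lower in members in both tissues. Itgb3 was also called higher in lung, and in blood Itga4 and Itgb1 were called higher and Itga1 lower. Itgb2, which encodes the beta chain that pairs with CD11b, was at -0.25 and -0.25 in lung and blood, although Itgam itself had chosen the members. The chemokines Ccl3, Ccl4 and Ccl5 were lower, Ccl5 at -0.26 and -0.18. Ccl3 and Ccl4 turned to the other direction in blood on thinned cells, with values of 0.029 and 0.11, and in lung without cells with 2 or more markers of other cell types, with 0.092 and 0.097. No gene was called in both tissues in the lists of CD27 signalling (6 tested), cell cycle (17), growth and ribosome biogenesis (15) and immediate early and heat shock genes (14). In blood, 4 growth genes and 5 immediate early genes were called lower and Npm1 higher, and in lung Myc and Fosb were called higher, while the test of the difference between tissues called no gene. Of 12 residency and TGF-beta genes tested, 4 were higher and none lower in lung, and 3 were higher and 4 lower in blood (Itga1, Ski, Smad3 and Cxcr6). Smad7 and Tgfbr2, of transforming growth factor beta signalling, were higher in both tissues by 0.19 and 0.21 and by 0.19 and 0.19, and Smad7 was at -0.018 in blood when cells with markers of other cell types were left out. Il12rb2, a chain of the interleukin-12 receptor, was lower at -0.24 and -0.35, and the interferon-stimulated gene Ly6e was higher by 0.35 and 0.42.

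Markers of other cell types moved with the members as well. Ighm was higher by 0.50 and 0.78 in lung and blood and Trbc1 by 0.25 and 0.23, while Cd3e was lower in blood at -1.76 and did not pass the test in lung at -0.86, where Cd3d was at -0.52 and Trac at -0.37. Tmem176b was lower at -1.78 and -0.97. The B cell gene Cd79a and the T cell genes Cd4 and Cd8a stayed near or at 0. Besides the matching on counts, thinning every cell to 3000 counts left 74 calls in lung and 109 in blood, and leaving out cells with 2 or more markers of other cell types left 158 and 171. That last step removed most cells, leaving 1397 in naive and 912 in 14d lung, since its markers include Trbc1, found in 73.4% of kept cells, and Trbc2, found in 39.7%. Counting only markers found in at most 5% of kept cells, an alternative chosen after seeing the data, gave 537 calls in lung and 1266 in blood.

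Set against the cells with one transcript, double-positive cells lay in between. Against Cd27-only cells, 256 genes were higher (2.37% of 10806) and 499 lower (4.62%) in lung, and 371 were higher (3.62% of 10242) and 475 lower (4.64%) in blood. Both tissues shared 405 calls (53.6% of those in lung and 47.9% of those in blood), 144 higher and 261 lower. Of the 15 less differentiated genes, 9 were now lower in members in both tissues, with Il7r (the interleukin-7 receptor alpha chain) at -2.54 and -2.60, Ltb at -1.23 and -1.72 and Tcf7 at -0.75 and -0.56 on the log2 scale. Of 14 terminally differentiated genes, 12 were higher in both, led by Klrg1 at 1.52 and 1.12 and Cma1 at 1.40 and 1.12. Zeb2 was higher by 0.80 and 0.86. Ccr2 did not pass the test in lung or blood, at -0.24 and -0.18, and neither did Myb, at -0.0044 and -0.25, or Itgax, at -0.00089 and -0.014. Without the naive library 425 genes were called in lung and 218 in blood, and without the 6h library 263 and 325. The split in blood turned round in these fits, with 117 higher and 101 lower without the naive library and 172 and 153 without the 6h library, and with no filter on low counts it was 524 and 478.

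Growth genes were lower in members than in Cd27-only cells. Of 15 genes of growth and ribosome biogenesis, 13 were lower in both tissues and none was higher, with medians of -0.57 in lung and -0.48 in blood. Myc, a driver of cell growth, was lower at -0.57 ± 0.14 (adjusted p = 0.015) in lung and -0.73 ± 0.16 (adjusted p = 0.0044) in blood. Among nucleolar genes, Ncl was at -0.35 and -0.34 in lung and blood, Npm1 at -0.49 and -0.36 and Fbl at -0.50 and -0.40. Of 14 interferon-stimulated genes, Isg15, Bst2, Ly6e and Zbp1 were lower in both tissues. Cd3g, a chain of the T cell receptor complex, was lower at -1.58 and -2.74, the phosphatase gene Inpp4b at -1.42 and -2.35 and Gzmc at -2.12 and -2.42. Of the Ly49 genes, Klra3, Klra4, Klra8 and Klra9 were higher in members, with Klra3 at -0.0074 in blood on thinned cells. Markers of other cell types moved with this comparison, since the 8 ILC1 markers, Il7r among them, summed to 329, 212 and 401 CPM in Cd27-only cells of naive, 6h and 14d lung and 179, 201 and 795 CPM in blood, and the 10 T cell markers to 832, 794 and 855 and to 791, 788 and 1292 CPM. Members had 71.5, 91.8 and 213 and then 60.5, 69.7 and 92.6 CPM of the ILC1 markers. The part of these cells in the differences was not tested.

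Against Itgam-only cells, 517 genes were higher (4.78% of 10806) and 244 lower (2.26%) in lung, and 644 were higher (6.29% of 10242) and 386 lower (3.77%) in blood, with 497 calls shared (65.3% and 48.3% of each tissue's), 341 higher and 156 lower. Of the 15 less differentiated genes, 14 were higher in members in both tissues, with medians of 1.21 in lung and 1.32 in blood. Ltb differed most among named genes, with 36.3, 57.1 and 147 CPM in naive, 6h and 14d lung and 47.4, 94.6 and 48.1 CPM in blood in members and 6.28, 12.4 and 35.5 in lung and 12.03, 16.3 and 6.59 in blood in Itgam-only cells, a log2 fold change of 2.22 ± 0.15 (adjusted p = 4.3e-08) in lung and 2.43 ± 0.23 (adjusted p = 6.6e-08) in blood. Emb was higher by 1.96 and 2.21, Tcf7 by 1.52 and 1.68, Myb by 1.25 and 1.90 and the chemokine gene Xcl1 by 0.92 and 0.33. Of 14 terminally differentiated genes, 12 were lower in both tissues and Itgax was higher by 0.38 and 0.63. Cx3cr1 was lower at -1.53 ± 0.11 (adjusted p = 9.4e-08) in lung and -1.51 ± 0.09 (adjusted p = 4.8e-11) in blood. Without the naive library 363 genes were called in lung and 404 in blood, and without the 6h library 191 and 391.

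The place between the 2 classes was measured on genes called between Cd27-only and Itgam-only cells with at least a 2-fold difference. On a scale where 0 is the level of Cd27-only and 1 that of Itgam-only cells, members lay between them for 430 of 451 genes in lung (95.3%) and 311 of 334 in blood (93.1%), with median positions of 0.50 and 0.53. The genes were chosen for a difference between the same sums that set 0 and 1, which favours a middle place for any other class, so these shares are a description. On thinned cells, the counts were 243 of 318 (76.4%) and 183 of 232 (78.9%). Genes beyond both classes were few. Phlpp1 was above both in lung and 27 genes were in blood, among them Klra7, the interleukin-18 receptor gene Il18r1 and Jak1, while Cd74 was below both in lung and 13 genes were in blood, and no gene was beyond both in the 2 tissues together. A middle position of a sum or of a mean can come from cells of a middle state or from a mixture of the other cells, and these values cannot tell them apart.

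Listed genes were also counted per cell at equal depth. At 3000 counts per cell, members held a mean of 3.63, 3.92 and 3.36 of the 15 less differentiated genes in naive, 6h and 14d lung and 2.93, 3.22 and 2.34 in blood. They held 6.29, 6.16 and 5.06 of the 15 terminally differentiated genes in lung and 6.01, 5.71 and 6.38 in blood. These means lay between those of Cd27-only and Itgam-only cells in all 6 sets. Cells with neither transcript lay between them as well on both lists in all 6 sets, with 2.56 less and 7.15 terminally differentiated genes in naive lung, 3.02 and 5.31 in 14d lung and 1.63 and 6.92 in 14d blood.

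**Figure D4:**
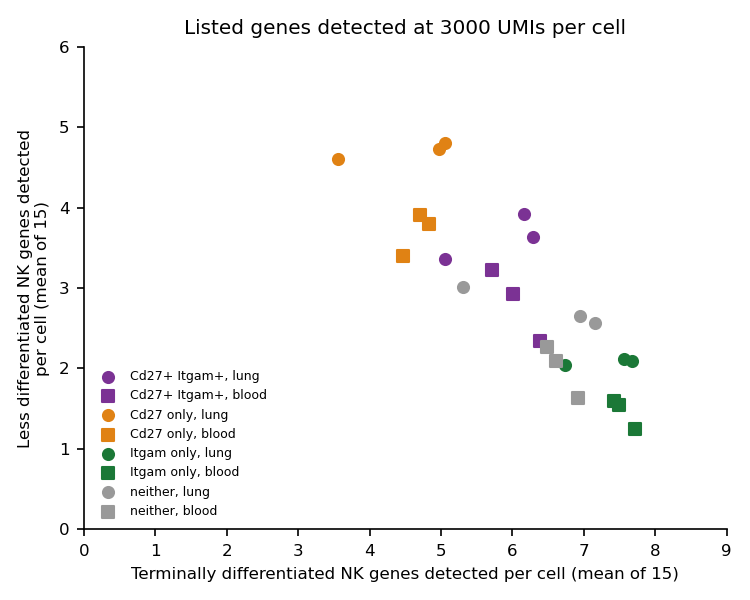
Mean number of the 15 less differentiated genes (y axis) against the mean number of the 15 terminally differentiated genes (x axis) detected per cell at 3000 counts, one point for each class of cells, library and tissue, circles for lung and squares for blood. The double-positive points lie between the Cd27-only points at upper left and the Itgam-only points at lower right.

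Within the members, a split by the 2 rule genes ran along the same genes. Cells with more Cd27 than Itgam counts were compared with cells with more Itgam than Cd27 counts. The split used the counts that chose the members, and the lists take in genes of the study's clusters in these libraries. The list counts are therefore a description and no separate evidence of variation among members. In lung, 296 genes were higher in the Cd27-leaning cells (3.24% of 9126) and 136 lower (1.49%), and in blood 211 were higher (2.39% of 8827) and 121 lower (1.37%), with 208 calls shared (48.1% and 62.7% of each tissue's). Of the 15 less differentiated genes, 11 were higher in the Cd27-leaning cells in both tissues, with Emb at 1.33 and 1.42 and Xcl1 at 1.59 and 1.00. Of the 14 terminally differentiated genes, 12 were lower in both, with Cx3cr1 at -1.87 and -1.89 and Cma1 at -1.23 and -1.38. On thinned cells, where few members remain, 0 of 1799 genes were called in lung and 4 in blood. In blood, 33 genes were called without the 6h library and 159 without the naive library.

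Between tissues, double-positive cells differed widely. These differences were not shown to be particular to members, since the test of the difference between the tissues called 0 of 11361 genes. Lung against blood members gave 859 genes higher in lung (8.22% of 10446) and 372 lower (3.56%), with the library as a block. Dusp1, an immediate early phosphatase gene, had 185, 189.6 and 161 CPM in naive, 6h and 14d lung and 7.51, 8.80 and 9.81 CPM in blood in members, a log2 fold change of 4.47 ± 0.12, and the other cells had 198, 224 and 145 in lung and 9.31, 10.5 and 7.82 in blood. Of 14 immediate early and heat shock genes, 12 were higher in lung and none lower, with a median of 2.21. Lungs were dissociated and blood was not, so that tissue and preparation cannot be told apart.

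Of 11 residency and TGF-beta genes tested, 6 were higher in lung members (Tgfb1, Smad7, Pmepa1, Skil, Tgfbr2 and Cd69) and Itgae was lower. Pmepa1, a target of TGF-beta signalling, was higher by 3.49 ± 0.44. Emb and Myb were higher in lung by 2.43 ± 0.11 and 1.53 ± 0.09. Of 19 NK receptors, 2 were higher in lung (Klrb1b and Tigit) and 7 were lower, among them Klrc3 at -1.10 ± 0.14 and Cd226 at -0.60 ± 0.08. Vegfa and the transporter gene Abcb1b were higher by 3.65 ± 0.24 and 3.93 ± 0.34. No cell cycle gene of 16 tested was called. Without the 14d library 3081 genes were called, and without the 6h library 543. Without the library block, 746 were called. DESeq2 called 530 higher and 108 lower in lung, and thinned cells gave 401 and 103.

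Between conditions, there was 1 library each and no test, and a gene was counted when its CPM differed at least 2-fold and reached 50 CPM in one of the groups. In 6h members, 2 genes were higher (0.0516% of 3873) and 1 was lower (0.0258%) than in naive members in lung, and 0 (0% of 3898) went either way in blood. On cells thinned to 3000 counts, with fewer counts in each sum, 23 were higher and 22 lower in lung and 13 and 27 in blood. Gadd45b, a stress-response gene, went from 20.1 to 70.2 CPM in lung, a log2 ratio of 1.81 (95% interval 1.45 to 2.18), against 0.56 in the other kept cells. It reached 50 CPM only through the 6h library. Xcl1 had a log2 ratio of 1.10 (95% interval 1.00 to 1.20), against 0.82 in the other kept cells. Sema6a was lower, at -1.09 (95% interval -1.31 to -0.86), against -0.21 in the other kept cells. Ltb was the gene nearest to the limit in 6h blood, with a log2 ratio of 1.00 (95% interval 0.79 to 1.20), against 0.59 in the other kept cells.

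In 14d members of lung, 50 genes were higher (1.28% of 3918) and 96 lower (2.45%) than in naive members, and in blood 1 was higher (0.0257% of 3898) and 9 were lower (0.231%). A gene under 50 CPM in one library entered only through the library where it was high. These counts, like those at 6h, therefore favour such genes and are a description. The median log2 ratio of all genes was -0.20 in both tissues. The split in lung depended on the scaling, with 95 higher and 58 lower when the totals omitted mitochondrial and ribosomal protein genes, and 72 and 55 with TMM factors. In blood it turned round, with 9 higher and 6 lower when those genes were omitted and 9 higher and 2 lower with TMM factors. More genes were lower than higher on thinned cells, with 104 higher and 220 lower in lung and 46 and 197 in blood, and with a minimum of 20 CPM, with 99 and 157 in lung and 13 and 25 in blood. All 146 genes in lung had the same direction in the other kept cells, and 100 of them passed the limit there too. Both sets of ratios come from the same naive and 14d libraries, so some agreement is built in. The share of all genes with the same direction in both was not measured.

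Isg20, Cxcl10, Itga1, Pmepa1 and Hspa1b were among the genes higher in 14d lung. Markers of other cell types moved with them, since in lung members the ILC1 markers summed to 71.5 CPM in the naive and 213 CPM in the 14d library and the myeloid markers to 3.25 and 41.7 CPM, and their part in the changes was not tested. Itga1 is itself on the ILC1 list and went from 11.1 to 89.5 CPM, so much of that sum's rise is this gene. Isg20, an exonuclease gene induced by interferon, went from 3.25 to 51.8 CPM, a log2 ratio of 3.99 (95% interval 3.16 to 4.97), against 4.25 in the other kept cells. Cxcl10, an interferon-induced chemokine, went from 6.23 to 88.0 CPM, a ratio of 3.82 (95% interval 3.21 to 4.50), against 4.01 in the other kept cells. Isg15, Bst2 and Ly6e also passed the limit upward. Low genes such as Isg20, Cxcl10 and Itga1 reached 50 CPM only through the library where they were high. The genes past the limit are therefore not counted against their lists. List medians are over genes whose mean over the 3 libraries reached 50 CPM in members. That mean includes the 14d library, so a gene high only there could still enter. Of 14 interferon-stimulated genes, 3 reached that mean, with a median log2 ratio of 0.40 in members and 0.50 in the other cells, beside -0.19 over all 3627 such genes in members. Of 13 residency and TGF-beta genes, 9 reached that mean, with medians of 0.66 and 0.72. In lung, 8 of the 13 reached 50 CPM in the naive or 6h library, so the 14d library had a part in admitting the 9. Itga1, which encodes CD49a, had a log2 ratio of 3.01 (95% interval 2.54 to 3.51), against 2.16 in the other kept cells, and Pmepa1 2.93 (95% interval 2.62 to 3.25), against 3.07 in the other kept cells. Tgfb1 had 1.17 (95% interval 1.04 to 1.31) and Ski 1.05 (95% interval 0.83 to 1.28). Of the immediate early and heat shock genes, Fosb, Jun and Hspa1b passed the limit upward, with Hspa1b, another gene low in the naive library, at 3.50 (95% interval 2.81 to 4.28), against 3.78 in the other kept cells, while the list's median was -0.09. Ltb had 2.01 (95% interval 1.74 to 2.29), against 2.94 in the other kept cells.

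Both maturation lists were below the median of all genes in 14d members of lung. The median log2 ratio was -0.40 over 11 less differentiated genes, against 0.06 in the other kept cells, although Ltb, Xcl1 and Ctla2a passed the limit upward and only Cd28 passed it downward. It was -0.41 over 12 terminally differentiated genes, against -0.64. Emb had -0.9995 (95% interval -1.10 to -0.90), against -0.25 in the other kept cells. S1pr1, an exit receptor, had -1.44 (95% interval -1.83 to -1.07), against -0.93 in the other kept cells, and Klf2 -1.26 (95% interval -1.35 to -1.18), against -1.29 in the other kept cells. Itga2, which encodes CD49b, had -1.13 (95% interval -1.22 to -1.04), against -1.27 in the other kept cells, and Il12rb2 -1.60 (95% interval -1.68 to -1.52). The largest falls in size were in Dock4 at -2.61, Sema6a at -2.48 and Rab27b at -2.37. In 14d blood, the median was -0.42 over the less differentiated and 0.21 over the terminally differentiated genes, with Aff3 at -1.10 (95% interval -1.22 to -0.98), against -1.20 in the other kept cells, and the protease inhibitor gene Serpinb9b at 1.09 (95% interval 0.89 to 1.29), against 0.88 in the other kept cells.

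**Figure D5:**
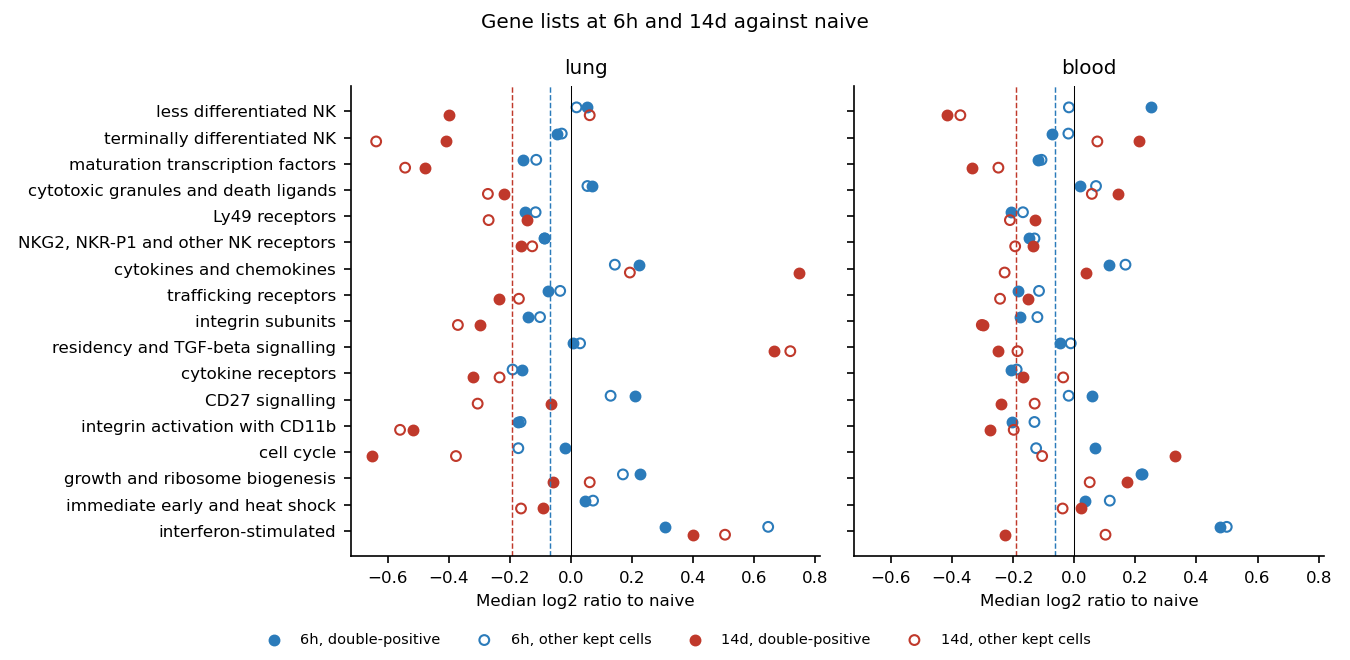
Median log2 ratio of CPM to the naive library (x axis) over the genes of each list with a mean of at least 50 CPM over the 3 libraries in double-positive cells (y axis), in double-positive cells (filled) and the other kept cells (open) of lung and blood at 6h and 14d, with dashed lines at the median of all such genes in double-positive cells. In 14d lung, the residency and TGF-beta list stands at 0.66 in double-positive and 0.72 in the other kept cells and the terminally differentiated list at -0.41 and -0.64, with 1 library behind each value. The mean over the 3 libraries includes the 14d library, so a gene high only there could enter a list.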

How the data were processed

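The authors deposited UMI counts (unit count, not normalized) of each gene and hashtag in all barcodes of the 3 libraries. Per the labels, reads were aligned to GRCm38.p6 with Cell Ranger, and the authors' own clustering used Seurat 5.0. Per the methods, 2 hashtags are named in the order lung and blood, and they were read in that order. The barcode lists held 1743618, 1796296 and 1388825 barcodes. The filter on genes and mitochondrial counts kept 8385, 7584 and 5785 of them, before barcodes with both hashtags or none were left out. Gene positions are from GENCODE M21 on GRCm38, in which 25461 of 25906 gene identifiers were found.

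The members and gene lists were chosen with earlier results of these data known. Counts were summed per library, tissue and class of cells, giving 3690504, 7475734 and 4168170 counts for members in naive, 6h and 14d lung and 6660406, 5678560 and 3261298 in blood. Sums were tested with edgeR 4.0.16 (quasi-likelihood, TMM, filterByExpr, library as a block) in R 4.3.3, with limma 3.58.1 and DESeq2 1.42.0, and log2 fold changes are given ± SE. Cells with Cd27 only, Itgam only, both or neither entered 1 fit per tissue. The fits of the 3 class comparisons in lung and of lung against blood were tested on simulated data. The simulated counts had the same preset spread for all genes, not estimated from these sums, and only genes above a minimum mean count were changed. The rates below hold for that setting and may differ in these libraries. Of genes changed 1.5-fold, edgeR recovered 74% for members against other cells and 67% in the fit of all classes. It recovered 63% for leaning cells and 71% for lung against blood. False calls by edgeR were 6.29%, 3.55%, 3.82% and 2.34% in that order, and by DESeq2 0%, 1.36%, 0% and 0%. Conditions were set side by side as ratios of CPM with exact 95% intervals conditional on the sum, with a floor of 3 counts for a gene at 0. Intervals cover counting error only.

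The genes named are Cd27 and Itgam, those of 17 lists, and by size, among genes called in both tissues with at least 50 CPM in the higher class, the first 10 each way for members against other cells and 5 each way for the other class comparisons. For lung against blood it was 10 each way and for the conditions 5 each way. List medians between conditions used a mean of at least 50 CPM over the 3 libraries, a choice made after seeing the data. Markers of cell types are named as checks, and Phlpp1, Cd74 and Jak1 were named after their values were seen. Gene models without a symbol, mitochondrial and ribosomal protein genes were not named by size. Alternatives changed the depth, the counts asked of each gene, the hashtag purity, the filter on cells, doublets, cells with other-type markers, the test, normalization, the filter on low counts and the libraries. Some genes of the lists are not reported here. Python 3.11.15, numpy 2.4.6, scipy 1.17.1, pandas 2.3.3 and matplotlib 3.10.9 were used. Lung endothelium, human data and adoptive transfers were not analysed here.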

Additional observations from a re-analysis of the deposited data

Results flagged for a closer look

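Barcodes with both hashtags lay outside all comparisons and held Cd27 and Itgam together in 33.6% (95% interval 28.6 to 38.9) of the naive, 38.0% (30.4 to 46.0) of the 6h and 37.3% (29.1 to 46.1) of the 14d library, above the 16.7%, 19.2% and 14.0% of barcodes with 1 hashtag. Their median counts were 11721.5, 14811 and 15333, against 6164, 7161 and 7177.5.

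Stmn1, which encodes a microtubule protein of dividing cells, went opposite ways in double-positive cells of the 2 tissues between the naive and 14d libraries, at -0.65 in lung against 0.97 in blood on the log2 scale. The difference between the tissues was not tested, and in blood the ratio was -0.18 on cells thinned to 3000 counts.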

How the results depend on the processing

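Of 4914 values of 596 named gene results under alternatives, 4078 kept their direction and side of the threshold or moved by less than their error, 791 kept their direction but lost the call, 26 moved and 19 reversed. On cells thinned to 3000 counts, the reversed log2 values were, against the other kept cells in blood, Ccl3 0.029, Ccl4 0.11 and Ltb -2.67e-05, against Cd27-only cells Bcl11b 0.55, Gzmb -0.0046 and Nop56 0.067 in lung and Klra3 -0.0074 in blood, against Itgam-only cells Tnf -0.55 in lung and Ccl4 0.19 in blood, between Cd27-leaning and Itgam-leaning cells Cd244a 0.0059, Ncl -0.16 and Srgn -0.17 in lung and Klra4 0.12 and Srgn -0.28 in blood, and for 14d against naive Stmn1 -0.18 in blood. Without cells with 2 or more markers of other cell types, Ccl3 was 0.092 and Ccl4 0.10 in lung and Smad7 -0.018 in blood, and with other cells matched on counts Klf2 was 0.065 in blood. The cause was not tested.

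The share of double-positive cells, in naive, 6h and 14d lung and then blood, was 5.21%, 5.47%, 3.45%, 7.39%, 6.93% and 4.36% on thinned cells, 2.83%, 4.12%, 2.04%, 4.76%, 6.77% and 3.09% with at least 2 counts of each gene, and 9.45%, 12.03%, 8.004%, 14.0%, 12.8% and 10.6% without cells with 2 or more markers of other cell types. With 1 hashtag at 99% or more it was 15.8% in naive lung, 19.5% in 6h lung and 23.9% in 6h blood. With 1000 to 4000 genes and at most 4% mitochondrial counts it was 15.4% in 6h lung and 20.02% in 6h blood, and without the 5% of cells with the most counts it was 16.3% in 6h lung. Counting only other-type markers found in at most 5% of kept cells, an alternative chosen after seeing the data, moved no share or count beyond these limits. DESeq2 for the difference between tissues was likewise added after seeing the data.

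Genes called on thinned cells numbered 74 in lung and 109 in blood against the other kept cells, 129 and 138 against Cd27-only, 215 and 261 against Itgam-only, 0 and 4 between leaning cells, and 504 between lung and blood. Fewer counts enter these sums. Against the other kept cells, calls were 215 in lung with other cells matched on counts, 158 in lung and 171 in blood without cells with other-type markers (537 and 1266 with the markers found in at most 5% of kept cells), and 689 in lung with no filter on low counts. DESeq2 called 180 in lung and 433 in blood against the other kept cells, 604 in blood against Itgam-only cells, 173 and 132 between leaning cells, and 638 between lung and blood, where 1881 were called with no filter on low counts. Lung and blood of a library come from the same mice, so the library was the pairing, and 746 genes were called with no replicate block (583 higher and 163 lower).

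With each library left out in turn, calls ranged from 269 to 954 in lung and 502 to 1529 in blood against the other kept cells, 263 to 543 and 218 to 906 against Cd27-only, 191 to 1031 and 391 to 1234 against Itgam-only, 300 to 549 and 33 to 421 between leaning cells, and 543 to 3081 between lung and blood. Genes past 2-fold at 6h numbered 45 in lung and 40 in blood on thinned cells, 6 and 3 with a minimum of 20 CPM, and in blood 1 with totals without mitochondrial and ribosomal protein genes and 1 with TMM factors. At 14d they numbered 324 in lung and 243 in blood on thinned cells and 256 and 38 with a minimum of 20 CPM.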
